A study of Mus musculus with 48 samples.

Results

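The combination of a GLP-1 receptor agonist with a CCK agonist was compared with each of the 2 drugs given alone, in RNA bound to phosphorylated ribosomes of the mouse dorsovagal complex (DVC). The comparison holds 9 of the 48 libraries of the series, 3 for each of 3 treatments, and was set as the combination minus the mean of the 2 single drugs, each drug at equal weight. The treatments were the combination, AC3174 alone, the GLP-1 receptor agonist, and AC170222 alone, the CCK agonist. A further 3 saline libraries of the same region and kind entered no fit and are given beside the values. All animals were male C57/Bl6 mice of 9 weeks on chow, fasted for 6 h and then injected intraperitoneally with 10 µL per g. The labels give 1 µg/kg for AC3174 and 2.5 µg/kg for AC170222, and the same sentence also lists doses of a drug spelled AC710222 and of exenatide, so that the doses behind these libraries are known only as far as the labels go. Neither the doses within the combination, nor the time between injection and dissection, nor whether a library pools several mice, was stated in the labels. Where libraries were not from separate animals, the p-values measure only the spread between these libraries, which may be technical.

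GLP-1 acts through a receptor coupled to Gs and cAMP, and CCK through receptors coupled to Gq and calcium. Both peptides signal satiety to the DVC, the hindbrain region that holds the nucleus of the solitary tract, the area postrema and the dorsal motor nucleus of the vagus. Neuronal activity leads to phosphorylation of ribosomal protein S6, so an antibody against S6 phosphorylated at 240/244 draws down ribosomes, and the RNA on them, preferentially from active cells. The series addresses how the 2 drugs together suppress feeding more than each does alone, and this comparison addresses whether the RNA captured after the combination departs from that captured after the single drugs.

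The 9 libraries held 102116189 to 164514903 counts. The number of genes with a count ran between 14857 and 16796 in 8 of them and was 9925 in AC3174 library 3, which lay at 247 on a first principal component on which the other 8 lay between -37.8 and -20.1. Genes with a count in all 9 libraries numbered 8098 of the 38293 in the table and took 90.6% of the counts. A further 2768 genes were counted in all but AC3174 library 3. Combination library 2 stood apart in genes of Purkinje cells, described with the other cell types, and differences that rest on it are given with and without it. Markers of the region were present: *Hoxb5*, a hindbrain patterning gene, *Chat*, which makes acetylcholine, and *Prph*, a filament of peripherally projecting neurons, were counted in all 9 libraries. The 9 libraries came from 3 pairs of well columns of the plate. AC170222 libraries 1 and 2 lay in columns 1 and 2 with none of the other treatments, and the remaining 7 lay in columns 3 and 4 or 5 and 6. Values are CPM, counts relative to a library size scaled by the trimmed mean of M values, and differences are in log2, with their standard error (SE).

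No gene differed between the combination and the mean of the single drugs at an adjusted p under 0.05 (edgeR quasi-likelihood test, Benjamini-Hochberg over 8098 genes; 0%). At an unadjusted p under 0.05 there were 178 genes, 2.2% of those tested, of which 100 were higher and 78 lower after the combination. The lowest adjusted p was 0.9995. DESeq2 called 14 genes on the same data, 5 higher and 9 lower, and limma-voom with sample weights called 0. For several of the 14, such as *Ghdc* and *Smpd3*, combination and single-drug libraries overlapped. *AY512931* and *Gm9387*, also among the 14, averaged only 0.047 and 0.031 CPM. The median difference over all genes was 0.01, with quartiles at -0.32 and 0.32, and 4114 genes (50.8%) had a positive one. In bulk samples such as these, fewer cells of a type and less RNA per cell cannot be told apart.

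The spread between replicates sets how much these data can show. The median SE was 0.58 over all genes, 0.64 for the 4262 genes with a mean of 10 to 100 CPM and 0.33 for the 2132 genes over 100 CPM. The 95% interval of the difference lay within 1 log2 unit either side of 0 for 1410 genes, 17.4% of the total, and for 53.0% of the genes over 100 CPM. For those 1410 genes a difference of 2-fold or more lies outside the interval. For the other genes the interval reached 2-fold or beyond, so a difference of that size was not excluded. For *Plk4*, described below, the interval lay wholly beyond 2-fold, at -10.99 to -2.42, without adjustment for the number of genes. The combination's mean CPM lay above both for 2244 genes (27.7%), below both for 2414 (29.8%) and between them for 3440 (42.5%).

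**Figure D1:**
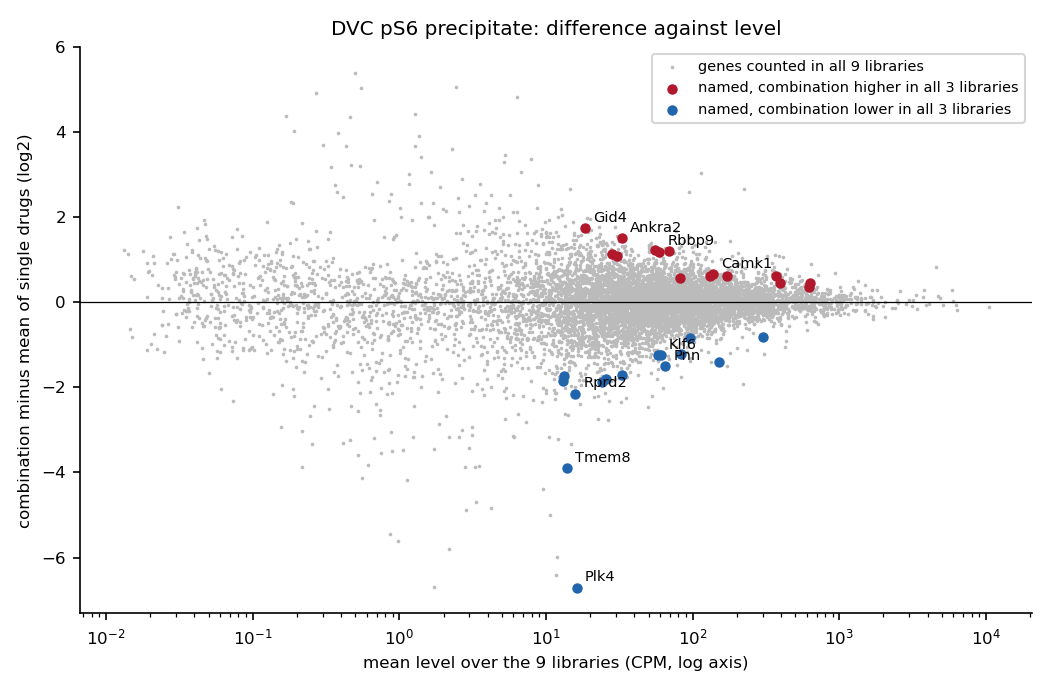
Difference in log2, combination minus mean of the single drugs (y axis), against mean level in CPM over the 9 libraries (x axis, log), for the 8098 genes counted in all 9. Red and blue points are the 15 genes named in each direction because all 3 combination libraries lay above, or below, all 6 single-drug libraries; the cloud narrows with level, from a median SE of 0.64 at 10 to 100 CPM to 0.33 over 100 CPM.

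All 3 combination libraries lay above all 6 single-drug libraries for 62 genes (0.766%), and below all 6 for 51 genes (0.63%). Of these, 40 and 36 reached a mean level of 10 CPM or more. The 15 in each direction that the naming rule gives are described here, with unadjusted p between 0.00945 and 0.107 for the higher genes and between 0.00557 and 0.0394 for the lower ones. Because they were chosen for the separation of their groups, that separation is a description of them and is not evidence for it. None was called by edgeR, and DESeq2 called *Pnn*, *Plk4* and *Zfp329* among them. Of the 30 genes 8 share bases of an exon with a gene on the other strand (*Aamp*, *Camk1*, *Cops6*, *Cpne9*, *Hecw1*, *Ifrd1*, *Mturn* and *Zfp74*), and since the library kit does not keep strand, reads of such partners cannot be told apart. The same holds for *Jun*, *Junb*, *Rps6kb1*, *Ppp1r1b*, *Olig1*, *Pcsk1n*, *Cox5a*, *Doc2b*, *Meg3* and *Malat1*, which are described with their pathways.

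*Rbbp9*, which encodes a serine hydrolase that binds the retinoblastoma protein, had the smallest p of the higher genes (GRCm38 chromosome 2, 144542265 to 144550869). It had 99.3, 118 and 66.9 CPM after the combination, 41.0, 55.6 and 31.6 CPM after AC3174, 32.1, 36.2 and 53.0 CPM after AC170222, and 13.6, 49.6 and 105 CPM after saline. The combination libraries thus lay above the single-drug libraries but overlapped the widely spread saline ones. The difference from the mean of the single drugs was 1.19 ± 0.37 (SE), with a 95% interval of 0.37 to 2.01 and an unadjusted p of 0.00945.

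*Camk1*, a calcium- and calmodulin-dependent kinase (chromosome 6, 113334124 to 113343984), varied little within each drug group. It had 191, 173 and 182 CPM after the combination, against 109, 128 and 124 CPM after AC3174 and 104, 99.2 and 129 CPM after AC170222, a difference of 0.66 ± 0.23. Saline libraries had 136, 226 and 339 CPM, so the combination lay within the saline range and both single drugs lay below it. The partner of *Camk1* on the other strand, *Ogg1*, averaged 10.9 CPM over the 9 libraries. *Cpne9*, a copine that binds membranes in response to calcium, lies on the same stretch of chromosome 6 (113282307 to 113305627), and had 155, 203 and 152 CPM after the combination, against 65.7 to 145 CPM in the 6 single-drug libraries.

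*Ifrd1*, a transcriptional co-regulator induced by growth factors, had 118, 64.6 and 84.8 CPM after the combination, against 20.7 to 60.6 CPM after the single drugs, a difference of 1.24 ± 0.44. *Id2*, an inhibitor of basic helix-loop-helix transcription factors, had 218, 251 and 197 CPM after the combination, against 57.0 to 193 CPM after the single drugs. *Cops6*, a subunit of the COP9 signalosome, had 459, 470 and 505 CPM after the combination, against 290 to 449 CPM after the single drugs. In each of these the gap between the groups was narrow beside the spread of the single-drug libraries.

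Subunits of ubiquitin ligases were represented by *Cdc16*, of the anaphase-promoting complex, and *Gid4*, the substrate receptor of the GID complex. *Cdc16* had 99.2, 119 and 109 CPM after the combination, against 71.0, 37.2 and 76.8 CPM after AC3174 and 9.53, 13.4 and 85.1 CPM after AC170222. The pair of low AC170222 libraries were those of well columns 1 and 2, and with the pair of well columns in the model the difference was 0.62 in place of 1.21, while without AC170222 library 3 it was 2.04. *Gid4* had 44.4, 24.6 and 34.4 CPM after the combination, against 0.473 to 19.7 CPM after the single drugs (1.75 ± 0.88). *Ankra2*, an ankyrin-repeat protein, had 68.8, 62.6 and 42.7 CPM after the combination, against 4.10 to 34.2 CPM after the single drugs (1.51 ± 0.66).

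*Eif5a*, a translation factor that carries the amino acid hypusine, had 677, 685 and 825 CPM after the combination, against 647, 654 and 611 CPM after AC3174 and 509, 487 and 529 CPM after AC170222. It thus stood apart from AC170222 (0.52 ± 0.20) and lay nearer to AC3174 (0.19 ± 0.20). *Sdhb*, the iron-sulfur subunit of respiratory complex II, had 819, 735 and 740 CPM after the combination, against 334 to 713 CPM after the single drugs. *Ift43*, a component of intraflagellar transport, had 28.6, 60.0 and 45.1 CPM after the combination, against 15.2 to 23.0 CPM after the single drugs. *Eipr1*, which takes part in the sorting of dense-core vesicle cargo, had 115, 104 and 95.3 CPM after the combination, against 59.6 to 85.1 CPM after the single drugs. The last 2 of the 15 were *Zfp74*, a zinc-finger gene, and *Aamp*, a WD-repeat protein, with differences of 1.09 ± 0.47 and 0.62 ± 0.34. In 3 of the 15 genes the combination libraries also lay above all 3 saline libraries. The choice of genes with high combination libraries favours this, and the share over all genes is not given here.

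*Pnn*, which encodes pinin, a protein of nuclear speckles and desmosomes that takes part in splicing, had the smallest p of the lower genes (chromosome 12, 59066884 to 59073998). It had 34.4, 18.6 and 33.4 CPM after the combination, against 83.5, 68.8 and 140 CPM after AC3174, 55.3, 62.9 and 88.1 CPM after AC170222, and 51.8, 62.5 and 157 CPM after saline. The combination libraries lay below all 9 others. The difference from the mean of the single drugs was -1.51 ± 0.42, with a 95% interval of -2.46 to -0.56 and an unadjusted p of 0.00557, and it was -1.76 against AC3174 and -1.26 against AC170222.

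*Plk4*, the kinase that starts centriole duplication, was below 1 CPM in all 3 combination libraries (chromosome 3, 40800019 to 40816883). It had 0.339, 0.0214 and 0.185 CPM after the combination, against 0.564, 4.41 and 112 CPM after AC3174, 8.43, 7.09 and 12.7 CPM after AC170222, and 0.0436, 20.7 and 3.99 CPM after saline. A count of 3 corresponded to 0.0214 CPM in combination library 2. The AC3174 libraries and the saline libraries differed widely among themselves, and the fitted difference of -6.71 ± 1.91 had an interval of -10.99 to -2.42. Without AC3174 library 3 it was -4.72. *Tmem8*, a membrane protein, had the same form: 0.00616, 0.963 and 2.00 CPM after the combination, against 6.07, 19.5 and 77.8 CPM after AC3174, 4.44, 4.601 and 9.98 CPM after AC170222, and at most 0.195 CPM after saline.

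*Klf6*, a zinc-finger factor induced by many stimuli, had 30.7, 28.3 and 32.2 CPM after the combination, against 141, 47.5 and 104 CPM after AC3174 and 38.6, 71.0 and 51.8 CPM after AC170222 (-1.25 ± 0.44). *Zfp329*, another zinc-finger gene, had 11.1, 6.96 and 7.94 CPM after the combination, against 19.0 to 50.8 CPM after the single drugs (-1.87 ± 0.57). *Klf6* was tight across the combination libraries, and the spread lay in the single-drug libraries. *Maz*, also a zinc-finger factor, had 3.91, 7.87 and 3.80 CPM after the combination, against 10.96 to 35.2 CPM after the single drugs. *Rprd2*, which binds the tail of RNA polymerase II, had 2.62, 2.27 and 9.36 CPM after the combination, against 11.1 to 48.5 CPM after the single drugs. *Lin52*, of the DREAM complex, and *Taf1a*, of the RNA polymerase I factor SL1, had differences of -1.22 ± 0.46 and -1.79 ± 0.72.

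*Slc10a4*, a synaptic vesicle protein of cholinergic and monoaminergic neurons, had 18.5, 9.63 and 8.88 CPM after the combination, against 27.7, 19.7 and 126 CPM after AC3174, 20.4, 33.2 and 31.5 CPM after AC170222, and 7.86, 25.9 and 0.00515 CPM after saline. *Hecw1*, a neuronal ubiquitin ligase, had 84.5, 76.5 and 42.8 CPM after the combination, against 91.7 to 517 CPM after the single drugs, with the highest value in AC170222 library 3. A single library thus set the top of the range for both genes. *Mturn*, or maturin, had 24.7, 22.04 and 42.8 CPM after the combination, against 48.4 to 128 CPM after the single drugs. *Rassf4*, a Ras-association protein, *Luzp1*, a leucine-zipper protein, and *Natd1*, an acetyltransferase-domain protein, had differences of -0.83 ± 0.30, -0.83 ± 0.31 and -1.84 ± 0.75. In 6 of the 15 lower genes the combination libraries lay below all 3 saline libraries as well. Their choice for low combination libraries favours this count too, again without a share over all genes.

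**Figure D2:**
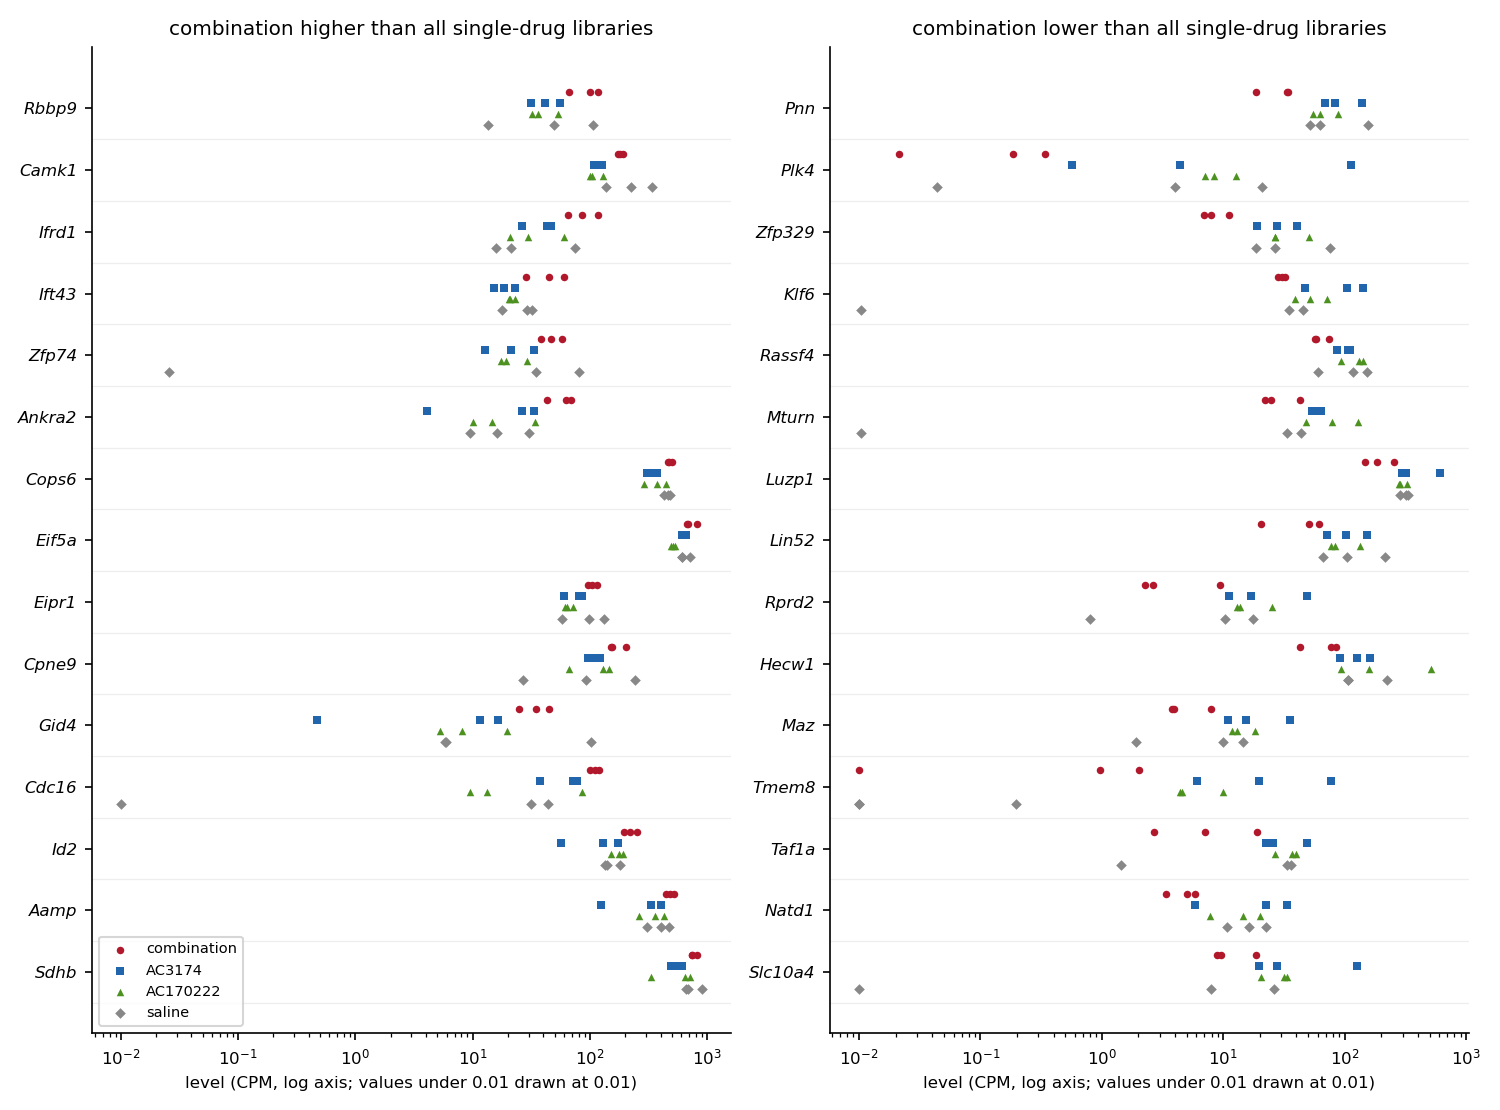
Level in CPM (x axis, log) of the 15 genes named as higher (left) and the 15 named as lower (right) after the combination, 1 point for each of 3 libraries per treatment, with the combination at the top of each row and saline at the bottom. *Pnn* combination libraries sit between 18.6 and 34.4 CPM and the single-drug ones between 55.3 and 140 CPM, whereas the saline points of many genes span both.

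Against each single drug the same fit called 0 genes. The combination minus AC3174 gave 278 genes at an unadjusted p under 0.05 (3.43%), 76 higher and 202 lower, and the combination minus AC170222 gave 340 (4.2%), 273 higher and 67 lower. DESeq2 called 46 and 90 genes in these comparisons. Both share the combination libraries. AC170222 libraries 1 and 2 lay in well columns 1 and 2, which held no combination or AC3174 library. In differences from AC170222, drug and well columns can thus be told apart only through AC170222 library 3. The following genes were chosen after their values were seen, to show the form of the differences from 1 drug alone. All 5 are among the DESeq2 calls against AC170222, and *Pcsk1n* and *Olig1* are also among those against AC3174.

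*Wasl*, an activator of actin branching, had the smallest p against AC170222. It had 111, 156 and 208 CPM after the combination, 195, 198 and 116 CPM after AC3174, 44.1, 30.5 and 34.7 CPM after AC170222, and 49.4, 65.1 and 77.8 CPM after saline. The combination was thus close to AC3174 and above AC170222 (2.12 ± 0.38, unadjusted p = 3e-04, adjusted p = 0.942, edgeR), and DESeq2 called it (adjusted p = 6.59e-06). *Cox5a*, a subunit of cytochrome oxidase, had 351, 397 and 375 CPM after the combination, 341, 443 and 437 CPM after AC3174, 168, 130 and 184 CPM after AC170222, and 318, 418 and 478 CPM after saline. There the AC170222 libraries were low and the other 9 overlapped (1.22 ± 0.24 against AC170222 and -0.12 ± 0.24 against AC3174). *Cyc1*, or cytochrome c1, had the same form, with 540, 566 and 598 CPM after the combination, 517 to 548 CPM after AC3174, 259, 221 and 366 CPM after AC170222, and 467, 621 and 622 CPM after saline.

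For some genes the combination lay between the drugs, so that the difference from their mean was small (-0.01 ± 0.54 for *Pcsk1n* and 0.44 ± 0.38 for *Olig1*). *Pcsk1n*, an inhibitor of prohormone convertase, had 18.4, 29.6 and 30.7 CPM after the combination, 205, 102 and 218 CPM after AC3174, 2.47, 1.66 and 7.90 CPM after AC170222, and 6.49, 5.19 and 113 CPM after saline. Its difference was -2.74 ± 0.66 against AC3174 and 2.71 ± 0.66 against AC170222. *Olig1*, a factor of the oligodendrocyte lineage, had 33.2, 59.0 and 56.2 CPM after the combination, 118, 137 and 175 CPM after AC3174, 5.49, 11.7 and 10.7 CPM after AC170222, and 15.4, 7.66 and 143 CPM after saline. For both genes the 3 drug groups did not overlap, while saline library 3 stood far above the other 2 saline libraries.

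The receptors of the 2 drugs could not be followed in these libraries. *Glp1r*, the GLP-1 receptor, had 1.27, 0 and 0 CPM after the combination, 2.81, 0 and 0 CPM after AC3174, 0 CPM in all 3 AC170222 libraries, and 0, 0.876 and 0 CPM after saline. *Cckar*, the CCK receptor of vagal and brainstem neurons, was at 0 in all 3 combination libraries, and had 21.0, 0 and 0 CPM after AC3174, 0, 9.21 and 0 CPM after AC170222, and 0, 28.8 and 0 CPM after saline. *Cckbr*, the second CCK receptor, was at 0 in the combination libraries, at 5.97, 0 and 81.4 CPM after AC3174, and at 0, 0.151 and 6.67 CPM after AC170222. A count of 0 in the combination group allowed up to 0.00731 CPM (3 counts over the group), by counting error only. Each of the 3 receptors was at 0 in most libraries, and a difference between treatments was not detectable. *Gcg*, which encodes the precursor of GLP-1, had 16.6, 0 and 2.00 CPM after the combination, 2.14, 0 and 0 CPM after AC3174, and 0 CPM in all AC170222 and saline libraries, and *Cck* had 17.1, 6.14 and 2.04 CPM after the combination, 16.5, 7.56 and 0 CPM after AC3174, and 3.34, 5.76 and 5.25 CPM after AC170222. None of the 7 genes of the 2 peptide systems was counted in all 9 libraries.

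Of 25 other appetite and visceral receptors 4 could be fitted, 2 with a positive difference, at a median of 0.94, which was -0.53 without combination library 2. *Lepr*, the leptin receptor, had 0.0185, 3.31 and 0.0371 CPM after the combination, against 0.0126 to 0.155 CPM after the single drugs. Its difference of 3.68 rested on combination library 2, and it was -1.66 without that library.

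Of 29 genes of Gs and cAMP signalling 19 were fitted, 11 with a positive difference, at a median of 0.13, and of 30 genes of Gq and calcium signalling 23 were fitted, 10 positive, at a median of -0.01. The median over all genes was 0.01. The Gq and calcium list had a median of -0.11 against AC3174 and 0.34 against AC170222, where the medians over all genes were -0.05 and 0.01. *Ppp1r1b*, or DARPP-32, an inhibitor of protein phosphatase 1 that acts when cAMP-dependent kinase phosphorylates it, had the smallest p of the cAMP list. It had 44.4, 208 and 365 CPM after the combination, against 134, 73.3 and 122.9 CPM after AC3174 and 45.8, 34.4 and 82.7 CPM after AC170222 (1.41 ± 0.55). Combination library 1 lay among the single-drug libraries, and the difference was 0.58 with the pair of well columns in the model.

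No fitted gene in the lists of activity-induced transcription factors and effectors separated the combination libraries from all single-drug libraries. *Klf6* and *Ifrd1*, described above as induced genes, did separate them but are not among the fitted genes of these lists. Both were chosen for that separation. Of 25 activity-induced transcription factors 7 were fitted and 3 had a positive difference, at a median of -0.21, which was -0.15 against AC3174 and 0.35 against AC170222. That median changed sign in 9 of 26 other settings, so that it has no stable direction. *Fos* had 57.9, 35.04 and 69.7 CPM after the combination, 32.0, 59.4 and 0 CPM after AC3174, 79.7, 104 and 58.5 CPM after AC170222, and 36.1, 70.8 and 0 CPM after saline, with the zeros in the libraries of few genes. *Junb* had 34.3, 54.2 and 33.3 CPM after the combination, 13.1, 23.5 and 0.200 CPM after AC3174, 28.8, 19.0 and 40.9 CPM after AC170222, and 48.5, 33.2 and 0 CPM after saline (1.09 ± 0.95). The treatments overlapped for both genes.

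*Jun* had 14.1, 241 and 166 CPM after the combination, 82.6, 213 and 161 CPM after AC3174, 11.5, 8.70 and 38.9 CPM after AC170222, and 5.44, 31.9 and 39.9 CPM after saline. Its high values came from well columns 5 and 6 in both treatments that had libraries there, with AC3174 library 1 next, and the difference of 1.36 ± 0.75 became -0.49 with the pair of well columns in the model. *Egr1* had 29.7, 68.9 and 29.7 CPM after the combination, against 14.9 to 79.3 CPM after the single drugs, and *Nr4a1* had 11.1, 6.10 and 18.4 CPM, against 7.60 to 24.9 CPM, while its 3 saline libraries were at 0. Of 27 activity-induced effectors 12 were fitted, 8 positive, at a median of 0.13. *Trib1*, a pseudokinase that acts on MAP kinase signalling, had the smallest p of these, with 5.68, 35.6 and 26.8 CPM after the combination, 16.7, 4.45 and 40.6 CPM after AC3174, 0.0821, 0.0685 and 1.74 CPM after AC170222, and 4.08, 2.19 and 0 CPM after saline. The combination overlapped AC3174 and lay above AC170222 (2.66 ± 1.12 against the mean of the drugs). *Dusp6*, the phosphatase of ERK, had 27.02, 23.9 and 22.4 CPM after the combination, against 26.2 to 74.99 CPM after the single drugs (-0.82 ± 0.47).

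**Figure D3:**
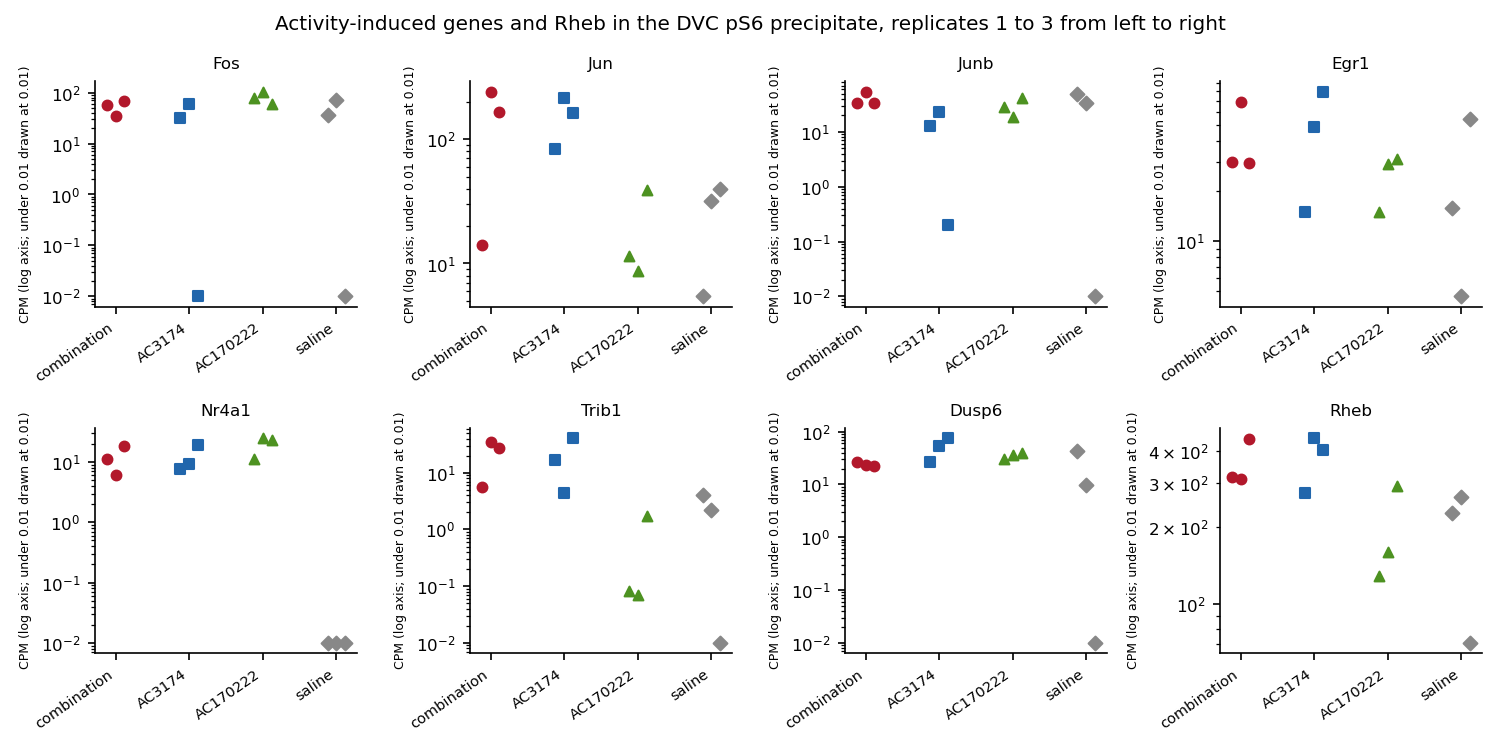
Level in CPM (y axes, log; values under 0.01 drawn at 0.01) of *Fos*, *Jun*, *Junb*, *Egr1*, *Nr4a1*, *Trib1*, *Dusp6* and *Rheb* in each library of the combination, AC3174, AC170222 and saline. Combination and single-drug points overlap in every panel, and *Jun* in the combination spans 14.1 to 241 CPM.

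The mTOR and S6 kinase pathway, which phosphorylates the protein used for the capture, had 22 of 33 genes fitted and 16 with a positive difference, at a median of 0.17. *Rps6kb1*, which encodes S6 kinase 1, had the smallest p, with 73.6, 82.1 and 53.7 CPM after the combination, against 63.2 to 194 CPM after the single drugs (-0.68 ± 0.38). *Rheb*, the GTPase that activates mTOR, had 314, 311 and 446 CPM after the combination, 273, 448 and 402 CPM after AC3174 and 129, 161 and 292 CPM after AC170222.

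Markers of cell types and cell compartments varied from library to library. The neuronal marker list summed to 21390, 33930 and 31680 CPM after the combination, 18970, 38120 and 25260 CPM after AC3174, and 37080, 33190 and 24880 CPM after AC170222, and its 17 fitted genes had a median difference of 0.02. The oligodendrocyte list summed to 6342, 1710 and 1519 CPM after the combination, 7279, 1451 and 2163 CPM after AC3174, and 1700, 1566 and 3612 CPM after AC170222. The libraries of well columns 3 and 4, which were library 1 of the combination, library 1 of AC3174 and library 3 of AC170222, had the lowest neuronal sums and the highest oligodendrocyte sums in each treatment. The part of these differences in the results was not tested. Microglial genes, 12 in all, summed to 1.51 to 73.3 CPM in the 9 libraries, and endothelial genes to 4.64 to 51.8 CPM.

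Combination library 2 carried high levels of genes that mark cerebellar Purkinje cells, a list put together after these values were seen. Its 11 genes summed to 235, 3108 and 272 CPM after the combination, 465, 284 and 171 CPM after AC3174, 190, 168 and 326 CPM after AC170222, and 180 to 232 CPM after saline. *Calb1*, which encodes the calcium buffer calbindin, had 119, 1291 and 88.4 CPM after the combination, 169, 103 and 108 CPM after AC3174 and 39.3, 52.8 and 56.2 CPM after AC170222. *Car8*, a protein that binds the IP3 receptor, had 39.3, 775 and 12.1 CPM after the combination, against 12.3 to 70.3 CPM after the single drugs. *Pcp2*, a Purkinje cell marker, had 1.62, 141 and 1.75 CPM after the combination and at most 8.46 CPM after the single drugs, and *Ppp1r17*, another, had 0.00616, 260 and 0 CPM after the combination and at most 20.6 CPM after the single drugs. The 6 genes of cerebellar granule cells summed to 60.6, 45.0 and 19.99 CPM after the combination, against 0.246 to 58.5 CPM after the single drugs.

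The total RNA taken before the precipitation showed the same library apart: *Car8* had 29.3, 253 and 23.0 CPM in the combination input libraries, against 14.9 to 59.9 CPM in the single-drug ones, and *Calb1* had 115, 383 and 122 CPM, against 94.6 to 216 CPM. *Calb1* had the smallest p of the calcium list at 2.66 ± 0.72 and without combination library 2 the difference was 0.37. Without that library the difference of *Car8* was -0.42, in place of 3.03.

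The summed astrocyte list was also highest in that library, mostly through *Aldoc*. The 12 genes summed to 4188, 14290 and 7403 CPM after the combination, against 3702 to 7164 CPM after the single drugs, and the median difference of the 9 fitted was 0.41, or 0.10 without it. *Aldoc*, a glycolytic enzyme of astrocytes and of Purkinje cells, had 2833, 11510 and 5091 CPM after the combination, against 2303 to 5167 CPM after the single drugs (0.84 ± 0.43, and 0.10 without that library). *Vim*, of ependymal cells, tanycytes and astrocytes, had 57.5, 351 and 73.4 CPM after the combination, against 22.8 to 131 CPM after the single drugs (1.54 ± 0.57, and 0.21 without that library). *Gfap*, the astrocyte filament, was highest in combination library 3 instead, with 271, 645 and 722 CPM after the combination, against 106 to 568 CPM after the single drugs. Choroid plexus genes varied between libraries, summing to 740, 43.5 and 1987 CPM after the combination, 1909, 73.4 and 804 CPM after AC3174, and 68.2, 54.4 and 341 CPM after AC170222, and *Clic6*, a channel of that tissue, had a difference of 2.58, which was -0.86 without combination library 3.

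Nuclear-retained RNAs, which are not translated, had a median difference of -1.07 over the 5 of 9 fitted, all 5 negative. They summed to 1031, 177 and 239 CPM after the combination, 1873, 149 and 1555 CPM after AC3174, 423, 217 and 2555 CPM after AC170222, and 781, 596 and 2282 CPM after saline, so the groups overlapped across a wide range. *Malat1* had 551, 68.8 and 126 CPM after the combination, against 60.9 to 1203 CPM after the single drugs, and *Meg3*, with the smallest p of the list, had 182, 18.3 and 31.8 CPM, against 30.4 to 758 CPM (-1.92 ± 1.27). Without AC170222 library 3 the median of the list was -0.48, and without combination library 1 it was -2.40. Messenger RNAs encoded in mitochondria, which cytosolic ribosomes do not translate, followed the same libraries. They summed to 350, 41.7 and 39.5 CPM after the combination, 648, 82.0 and 413 CPM after AC3174, 80.0, 8.84 and 1785 CPM after AC170222, and 107, 311 and 1712 CPM after saline. The median of the 4 fitted of 13 was -1.60, and it was 0.25 without AC170222 library 3 and -3.51 without combination library 1.

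**Figure D4:**
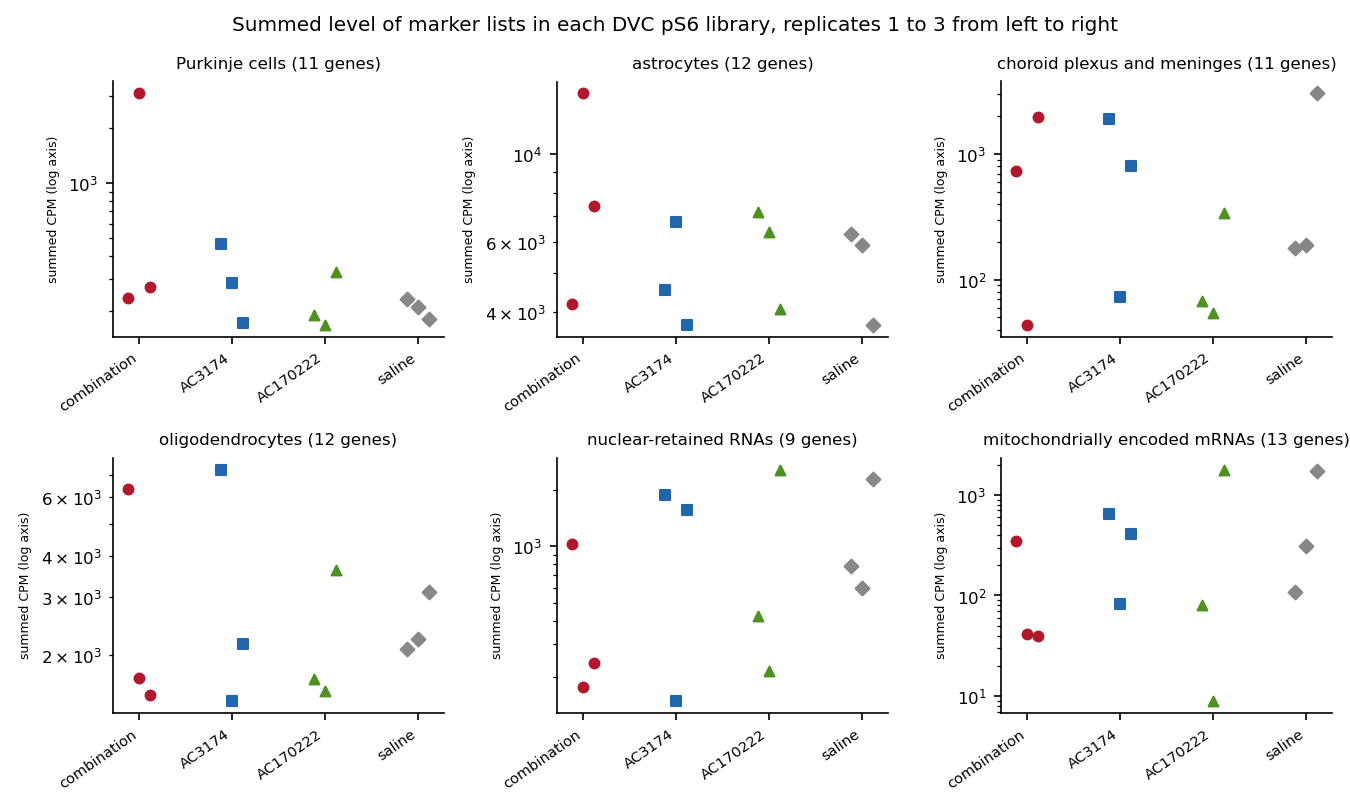
Summed level in CPM (y axes, log) of the gene lists for Purkinje cells, astrocytes, choroid plexus and meninges, oligodendrocytes, nuclear-retained RNAs and mitochondrially encoded mRNAs in each library of the combination, AC3174, AC170222 and saline. Combination library 2 stands at 3108 CPM for the Purkinje cell list, against 168 to 465 CPM in the single-drug libraries; the other lists range widely within each treatment.

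Voltage-gated and other potassium channels had 20 of 35 genes fitted and 6 positive, at a median of -0.18, which was -0.64 against AC3174 and 0.22 against AC170222. *Kcnj11*, the pore of the ATP-sensitive potassium channel, had 1.503, 2.70 and 1.79 CPM after the combination, 3.17, 11.8 and 14.8 CPM after AC3174 and 3.85, 2.32 and 5.09 CPM after AC170222 (-1.61 ± 0.73). Sodium and calcium channels had 12 of 26 fitted and 3 positive, at a median of -0.33, with *Scn8a*, an axonal sodium channel, at 30.1, 9.90 and 6.08 CPM after the combination, against 13.3 to 111 CPM after the single drugs. Transmitter receptors had 10 of 28 fitted and 3 positive, at a median of -0.31, which had the other sign in 6 of 26 other settings.

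Vagal motor neuron genes had 9 of 19 fitted and 2 positive, at a median of -0.28. *Chat* had 189, 414 and 326 CPM after the combination, 183, 528 and 637 CPM after AC3174, 491, 372 and 218 CPM after AC170222, and 227, 610 and 62.0 CPM after saline, so that the treatments overlapped. *Hoxb5* had 123.3, 133 and 109 CPM after the combination, against 90.2 to 184 CPM after the single drugs. Synaptic vesicle genes had 27 of 29 fitted, at a median of -0.08, and *Doc2b*, a calcium sensor of vesicle release with the smallest p among them, had 5.67, 6.09 and 0.00927 CPM after the combination, against 0.126 to 0.765 CPM after the single drugs (3.06 ± 1.2). The third combination library was thus lower than the single-drug ones. Prohormone processing genes had 10 of 12 fitted, at a median of 0.00. The 5 fitted of 26 neuropeptide and visceral marker genes were all positive, at a median of 0.13, which was -0.42 against AC3174 and 0.84 against AC170222, and -0.83 without combination library 1. *Penk*, the enkephalin precursor, had 124, 21.1 and 20.2 CPM after the combination, against 3.87 to 71.1 CPM after the single drugs.

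Cytosolic ribosomal proteins had 78 of 79 fitted and 12 positive, at a median of -0.19, and 49 of the 78 had a combination mean below both single-drug means. They summed to 8500, 8276 and 7734 CPM after the combination, 6747, 8722 and 11500 CPM after AC3174, and 10950, 11250 and 6295 CPM after AC170222, within which range the combination libraries fell. Within well columns 3 and 4 the median was 0.37, within columns 5 and 6 it was -0.34 against AC3174, and with the pair of well columns in the model it was 0.09. Translation factors had 30 of 30 fitted and 18 positive, at a median of 0.06.

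Subunits of the respiratory chain encoded in the nucleus had 76 of 76 fitted and 34 positive, at a median of -0.02, and 3 had an unadjusted p under 0.05, all higher. These were *Cox5a* (0.55 ± 0.20), *Cyc1* (0.55 ± 0.20) and *Uqcrfs1*, the Rieske protein of complex III (1.11 ± 0.49). *Uqcrfs1* had 430, 584 and 604 CPM after the combination, 415, 559 and 208 CPM after AC3174, and 111, 54.2 and 308 CPM after AC170222, so that AC170222 libraries 1 and 2 were low and library 3 overlapped AC3174. With the pair of well columns in the model the differences were 0.37 for *Cox5a*, 0.33 for *Cyc1* and 0.56 for *Uqcrfs1*. Proteasome subunits had 31 of 31 fitted and 24 positive, at a median of 0.11, which was -0.01 without AC170222 library 3. Glycolysis enzymes had 16 of 16 fitted and 13 positive, at a median of 0.16, which was -0.10 without combination library 2. *Hspb1*, a small heat shock protein, had the smallest p of the chaperones, with 29.98, 102 and 94.9 CPM after the combination, 27.3, 99.8 and 55.2 CPM after AC3174 and 16.3, 8.27 and 23.4 CPM after AC170222 (1.27 ± 0.56, and 0.35 with the pair of well columns in the model). edgeR called no gene of any list, in any of these 3 comparisons.

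**Figure D5:**
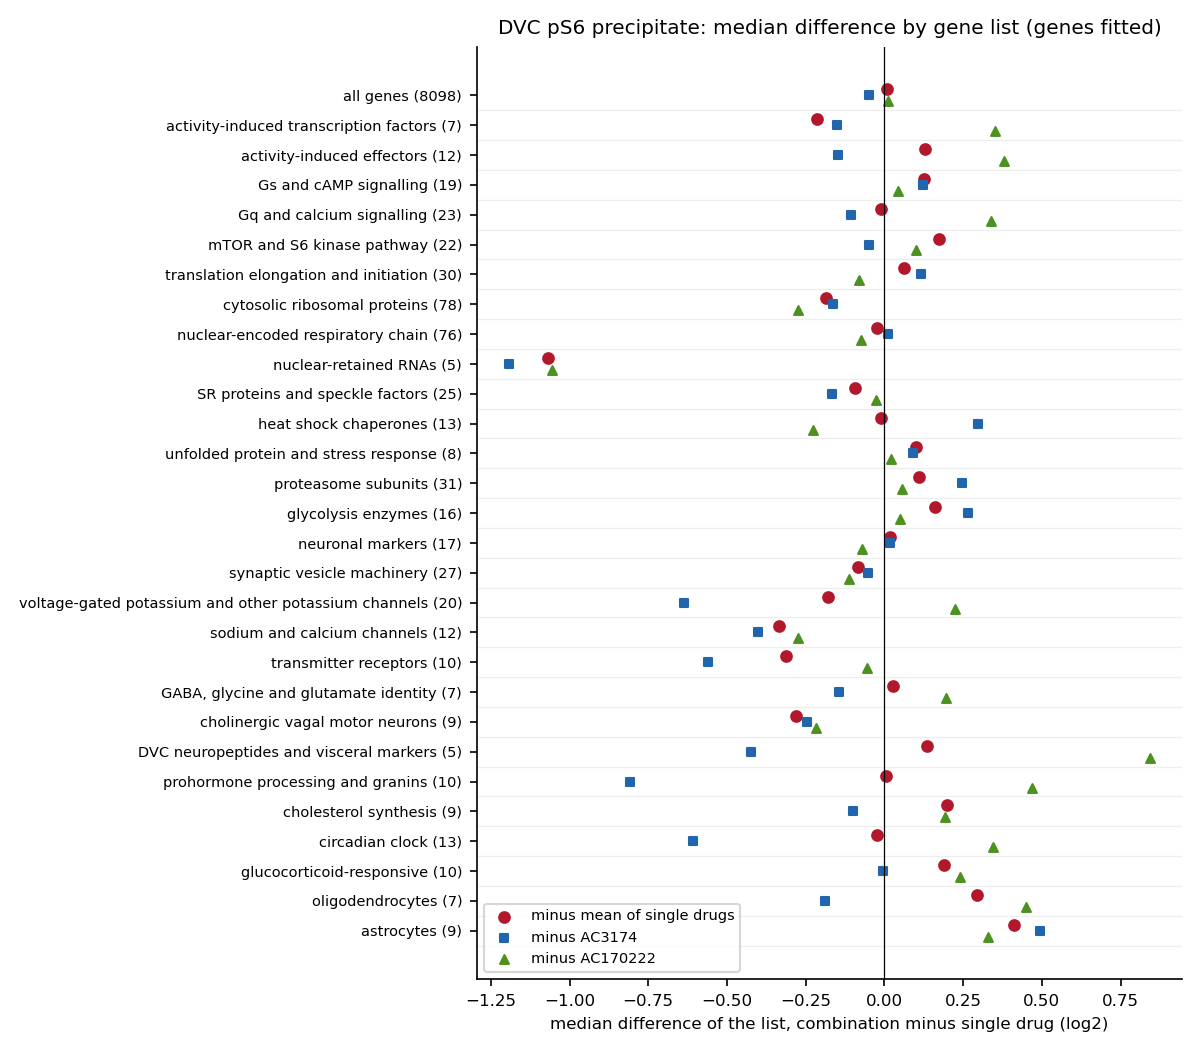
Median log2 difference of each gene list with at least 5 genes fitted (number in brackets), for the combination minus the mean of the single drugs, minus AC3174 and minus AC170222. Ribosomal proteins lie at -0.19 and astrocyte genes at 0.41 against the mean of the drugs; nuclear-retained RNAs lie at -1.07, and the lists for potassium channels and prohormone processing have opposite signs against the 2 drugs.

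The same contrast in the DVC input, the total RNA of the same tissue, called 0 of 13137 genes (edgeR), with 521 (3.97%) at an unadjusted p under 0.05, while DESeq2 called 26. Of the 15 genes named as higher on ribosomes 8 were positive and 7 negative in the input, and of the 15 lower 9 were negative and 6 positive. The combination libraries lay apart from all single-drug ones in the same direction for 2 higher genes and 1 lower gene. The share of all input genes set apart in this way is not given here. *Rprd2* at 0.81 ± 0.44 and *Zfp74* at -0.55 ± 0.42 had the opposite sign in the input. *Pnn* was low there too, with 60.1, 41.6 and 54.1 CPM after the combination, against 74.7, 69.4 and 68.8 CPM after AC3174 and 90.1, 85.4 and 81.3 CPM after AC170222, again without overlap (-0.58 ± 0.18, unadjusted p = 0.00821, adjusted p = 0.9986, edgeR). *Rbbp9* had 68.5, 67.3 and 78.7 CPM after the combination, against 47.3 to 63.0 CPM after the single drugs (0.41 ± 0.18), and *Ankra2* had 37.3, 43.5 and 60.3 CPM, against 18.4 to 38.9 CPM (0.75 ± 0.31, adjusted p = 0.9986 for both, edgeR). *Klf6* had 56.8, 63.5 and 48.6 CPM, against 46.7 to 74.5 CPM, and so overlapped. Since input and ribosome libraries of one number may come from the same tissue, these values are not independent of those above.

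The difference between ribosome-bound and input RNA in this contrast was tested directly and called 0 of 7744 genes, with 184 (2.38%) at an unadjusted p under 0.05. That fit took the libraries as unpaired. With the sample shared by ribosome and input libraries as a block, edgeR called 0 genes, with 125 at an unadjusted p under 0.05. Among the 30 named genes, which the ribosome values had chosen, the smallest p in the unpaired fit was that of *Zfp329* (-1.98 ± 0.56, unadjusted p = 0.00293, adjusted p = 0.9999, edgeR). Ribosomal protein genes, at a median of -0.19 on DVC ribosomes and 0.09 with the well columns in the model, had 0.10 in the input. In the input 67 of 78 were positive, and the median over all genes was 0.02.

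In the pS6 precipitate of the mediobasal hypothalamus (MBH) the contrast called 0 of 4189 genes, with 51 (1.22%) at an unadjusted p under 0.05, and DESeq2 called 1. Only 12 of the 30 named genes could be fitted there, of which 4 of the 6 higher genes were positive and 3 of the 6 lower genes negative. *Pnn* had a negative difference in this region as well, at -1.05 ± 0.66, as did *Maz* at -1.10 ± 0.83 (adjusted p = 0.9999 for both, edgeR). The groups overlapped for both, with *Pnn* at 67.6 to 90.1 CPM after the combination and 53.4 to 309 CPM after the single drugs. The highest values of both genes were in library 3 of AC3174 and library 3 of AC170222. These MBH libraries had only 6285 and 10050 genes with a count. Ribosomal protein genes had a median of -0.38 in the MBH precipitate, with 6 of 74 positive, against -0.03 over all genes. The difference between the regions called 0 of 3763 genes, with 43 (1.14%) at an unadjusted p under 0.05.

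Genes at 0 in 1 arm were left out of the fit and are described here. *Vash2*, which encodes a tubulin carboxypeptidase, was the only gene at 0 in all 3 combination libraries and counted in all 6 single-drug libraries. It had 7.22, 18.7 and 0.865 CPM after AC3174, 11.6, 34.6 and 22.2 CPM after AC170222, and 21.8, 15.3 and 0.00515 CPM after saline. Its level after the combination was at least 2170-fold lower than the mean of the single drugs, taken against 3 counts over the combination group. That bound covers counting error only. Within saline alone *Vash2* ran between 0.00515 and 21.8 CPM, so the fold is not an estimate of a treatment effect. In the other direction 13 genes had a count in all 3 combination libraries and 0 in the 6 single-drug libraries, at low levels. *Slc9a3*, a sodium-proton exchanger, had 0.868, 1.20 and 0.278 CPM after the combination. Genes at 0 in all 3 libraries of AC3174 and counted in the other 6 numbered 14, and for AC170222 they numbered 7.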

How the data were processed

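RNA bound to ribosomes carrying phosphorylated S6 (ip), and total RNA of the same supernatant (input), were sequenced from SMART-Seq v4 and Nextera XT libraries, which keep no strand, per the labels' protocols. The authors deposited raw counts per gene as whole numbers for all 48 samples in 1 table. TopHat2 2.0.11, HTSeq 0.6.1p1 and the build GRCm38 are named in the submitters' processing notes. The reads carry no molecular identifiers, so floors cover counting error only.

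From these counts, genes counted in all 9 libraries were fitted with edgeR 4.0.16 (trimmed mean of M values, quasi-likelihood test, R 4.3.3) with 1 term per treatment, and the Benjamini-Hochberg adjustment ran over all genes of a fit, with a threshold of 0.05. DESeq2 1.42.0 and limma 3.58.1 were alternatives, as were other filters, scalings, a replicate block, the pair of well columns as a covariate and leaving out each library. The code of the test was run on simulated counts with less spread between replicates than these libraries, so that run does not show its power here. Named genes were the 15 per direction with a mean of at least 10 CPM, all 3 combination libraries on 1 side of all 6 single-drug libraries, and the smallest p; other genes named are those with the smallest p of a list, or markers. The members and lists were chosen with earlier results of these data known. The lists of Purkinje and granule cells, *Wasl*, *Olig1*, *Pcsk1n*, *Cox5a* and *Cyc1* were chosen after their values were seen.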

Additional observations from a re-analysis of the deposited data

How the results depend on the processing

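Against the mean of the single drugs edgeR called 0 genes under each filter, scaling and covariate tried, and 0 to 0 with 1 library left out in turn. DESeq2 called 14 genes there, 46 against AC3174, 90 against AC170222, 26 in the DVC input and 1 in the MBH precipitate. Against AC3174 leaving out 1 library gave 0 to 0 calls, and against AC170222 it gave 0 to 2, the 2 without AC170222 library 3. Without that library the AC170222 group lay only in well columns 1 and 2, which held no combination library. Drug and well columns cannot be told apart in that setting. The count at an unadjusted p under 0.05 ran between 84 and 327 with 1 library left out, the lowest without combination library 3 and the highest without AC170222 library 3, and was 1089 with no filter. The replicate block gave 0 calls and 121 genes at an unadjusted p under 0.05. Libraries of 1 number had a median correlation of 0.03 between deviations, with 2 of 9 pairs over 0.1, against a median of -0.01 for other numbers. With so few pairs this does not settle whether the numbers pair the samples. Libraries of 1 pair of well columns had a median of 0.11, with 4 of 7 pairs over 0.1, and with those columns as a covariate 311 genes had an unadjusted p under 0.05, against 178 without.

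Of 779 other values of the 30 named genes 0 changed sign, which the separation they were chosen for largely fixes. Among the other genes printed, *Doc2b* had -1.08 under limma-voom, in place of 3.06, and *Jun* had -0.49 with the well columns in the model. With 1 library left out, *Car8* ran between -0.42 and 3.57, *Lepr* between -1.66 and 4.25 and *Clic6* between -0.86 and 3.12. In 2 settings chosen after seeing the data, leaving out combination library 2 with AC3174 library 3 gave -0.61 for *Car8* and -1.29 for *Lepr*, and leaving it out with AC170222 library 3 gave -0.34 for *Car8*, -1.43 for *Lepr*, -0.0044 for *Aldoc* and 0.055 for *mt-Nd1*. In the last of these the median of the nuclear-retained RNAs was -0.03. The cause was not tested.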
